A study of Mus musculus with 2 samples.

Results

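Promoters of long noncoding RNA (lncRNA) genes that stand apart from protein-coding genes were described in open chromatin of mouse hippocampus. The genes were those of GENCODE M21 with the types lincRNA, antisense, bidirectional promoter lncRNA, sense intronic or processed transcript. A transcription start site (TSS) was used only if it lay more than 5 kb from every TSS of a protein-coding gene, which left 10370 start sites of 7250 genes out of 10120. The members were the peaks within 1 kb of such a TSS: 2372 of 115072 peaks (2.06%) in replicate 1 and 2007 of 95711 peaks (2.10%) in replicate 2. The rule used the position of a peak and none of its values.

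The data were DNase-seq, in which DNase I cuts accessible DNA and dense cutting marks open regulatory sites. The samples were 2 biological replicates of 1 group: male mice of the B6CASTF1/J cross, the first generation from C57BL/6 and CAST/EiJ, at an age of 14 days. The tissue is labelled as a layer of hippocampus, which layer is not named, another label speaks of 3 males, and both replicates carry the same donor entry, so separate animals are not stated and the spread between them may be technical. With no second group and 2 replicates no test over samples could reach 0.05 (the smallest exact 2-sided p is 0.5), and the results are descriptions with both replicates given. In this bulk tissue, fewer cells with an open site and a less open site per cell cannot be told apart. As a check of the tissue label, promoters of all 7 hippocampal neuron genes examined had a peak in both replicates, from 1.76 and 1.88 (replicates 1 and 2) at Prox1 to 6.25 and 7.97 at Zbtb20. Of 6 genes of other tissues and of the trunk 2 had one: Alb at 0.156 and 0.220, beside a noncoding transcript of that gene, and Hoxa7 at 2.32 and 2.54. Among all coding genes 64.3% had a peak in both replicates, and Hoxa7 lay above Prox1 and Neurod1 (1.99 and 2.05). The check is therefore a weak one.

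LncRNAs are transcripts without a long open reading frame, most of them made by RNA polymerase II, capped and spliced. Some act at or near their own gene, as Kcnq1ot1 and Airn do in genomic imprinting, some act across a chromosome, as Xist does, some build nuclear bodies, as Neat1 does, and others are hosts from whose introns or exons small nucleolar RNAs or microRNAs are cut. Many are expressed in few cell types. Their promoters, like those of coding genes, can be CpG islands or CpG-poor, and the open site over a promoter is where the transcription machinery and sequence-specific factors bind.

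The sequences below show how different these promoter peaks were. Each is the whole replicate 1 peak in the C57BL/6J reference (GRCm38, that is mm10), read from the RefSeq assembly along the strand of the gene, and matches to a motif searched on either strand are in capitals. The motifs seen here were SP (CCCGCCCC), NRF1 (GCGCATGCG), RFX (GTTGCCATG), CRE (TGACGTCA) and the CTCF core. The TATA box was searched as TATAAA. The E-box was searched in the form CAGCTG and also in the related form CATCTG. A match is a description of the letters, not a bound site. The first set holds 5 of the genes with the highest promoter values, the second 4 RNA hosts or broadly open genes, and the third 3 genes of imprinted loci and of the X chromosome.
Gm15408, chr5:149006801-149007020, plus strand: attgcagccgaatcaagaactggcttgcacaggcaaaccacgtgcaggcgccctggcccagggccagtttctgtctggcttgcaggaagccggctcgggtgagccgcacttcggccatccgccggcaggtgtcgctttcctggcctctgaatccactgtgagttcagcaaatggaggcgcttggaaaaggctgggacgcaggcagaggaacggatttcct
Malat1, chr19:5803541-5803800, minus strand: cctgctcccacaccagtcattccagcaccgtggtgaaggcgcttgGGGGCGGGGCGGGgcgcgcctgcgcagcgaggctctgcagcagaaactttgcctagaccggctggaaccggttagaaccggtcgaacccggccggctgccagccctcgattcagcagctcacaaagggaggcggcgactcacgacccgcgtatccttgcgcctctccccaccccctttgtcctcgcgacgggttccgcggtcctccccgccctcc
Gm11205, chr11:79704461-79704760, plus strand: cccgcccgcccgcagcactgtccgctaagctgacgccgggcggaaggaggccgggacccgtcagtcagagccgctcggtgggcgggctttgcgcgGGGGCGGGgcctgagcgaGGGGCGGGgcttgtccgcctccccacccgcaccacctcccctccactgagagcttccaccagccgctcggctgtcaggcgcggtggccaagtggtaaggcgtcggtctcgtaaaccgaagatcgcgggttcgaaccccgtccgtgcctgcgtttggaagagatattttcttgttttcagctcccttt
Gm31812, chr1:52113721-52114020, minus strand: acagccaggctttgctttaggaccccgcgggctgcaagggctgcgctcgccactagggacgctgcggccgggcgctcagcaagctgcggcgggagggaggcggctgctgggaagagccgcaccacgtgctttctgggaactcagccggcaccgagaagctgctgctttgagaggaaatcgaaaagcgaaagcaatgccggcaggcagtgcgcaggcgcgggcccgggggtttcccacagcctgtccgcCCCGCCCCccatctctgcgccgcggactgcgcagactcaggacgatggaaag
Gm32834, chr13:51418641-51418860, minus strand: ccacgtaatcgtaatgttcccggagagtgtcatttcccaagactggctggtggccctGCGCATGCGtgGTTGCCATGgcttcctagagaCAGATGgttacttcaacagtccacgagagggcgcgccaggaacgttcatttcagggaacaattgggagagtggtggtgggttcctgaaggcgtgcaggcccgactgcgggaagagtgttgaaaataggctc
1810026B05Rik, chr7:73558621-73558860, minus strand: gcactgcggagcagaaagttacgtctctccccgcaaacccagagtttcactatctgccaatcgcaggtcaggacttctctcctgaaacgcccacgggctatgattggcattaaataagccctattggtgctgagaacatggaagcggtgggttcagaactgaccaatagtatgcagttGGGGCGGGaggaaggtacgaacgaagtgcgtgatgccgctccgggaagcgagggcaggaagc
Snhg15, chr11:6528741-6528980, minus strand: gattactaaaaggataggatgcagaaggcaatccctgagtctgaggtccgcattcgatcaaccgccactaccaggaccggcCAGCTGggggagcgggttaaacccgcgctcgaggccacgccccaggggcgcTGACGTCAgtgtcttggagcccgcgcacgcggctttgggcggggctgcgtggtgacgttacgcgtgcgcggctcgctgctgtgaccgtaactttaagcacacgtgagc
Snhg5, chr9:88522821-88523000, minus strand: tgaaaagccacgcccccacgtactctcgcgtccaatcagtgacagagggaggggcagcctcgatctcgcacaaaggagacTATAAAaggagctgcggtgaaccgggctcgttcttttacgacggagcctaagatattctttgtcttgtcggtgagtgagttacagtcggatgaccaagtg
3110039I08Rik, chr9:41474681-41474900, plus strand: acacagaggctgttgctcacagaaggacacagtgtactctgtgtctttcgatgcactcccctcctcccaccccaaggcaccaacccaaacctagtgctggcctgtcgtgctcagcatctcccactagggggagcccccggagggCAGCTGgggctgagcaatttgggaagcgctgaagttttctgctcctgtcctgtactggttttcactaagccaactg
Peg13, chr15:72809941-72810160, minus strand: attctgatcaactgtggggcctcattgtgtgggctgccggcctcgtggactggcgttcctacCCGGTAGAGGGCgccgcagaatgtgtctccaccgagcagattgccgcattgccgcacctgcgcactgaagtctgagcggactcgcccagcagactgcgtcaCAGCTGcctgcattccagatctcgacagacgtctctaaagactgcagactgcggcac
Meg3, chr12:109542921-109543140, plus strand: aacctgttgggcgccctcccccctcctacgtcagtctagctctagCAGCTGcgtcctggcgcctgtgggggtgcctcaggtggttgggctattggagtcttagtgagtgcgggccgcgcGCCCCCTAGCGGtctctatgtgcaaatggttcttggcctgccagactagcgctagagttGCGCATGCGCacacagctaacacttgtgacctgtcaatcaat
Ftx, chrX:103622481-103622660, minus strand: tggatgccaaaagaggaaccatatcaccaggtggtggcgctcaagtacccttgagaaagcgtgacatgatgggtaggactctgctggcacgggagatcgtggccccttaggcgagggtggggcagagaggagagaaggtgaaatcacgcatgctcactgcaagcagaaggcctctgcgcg

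The shown sequences differed in CpG content and in their matches. The Gm11205 peak held 33 CpG dinucleotides in 300 bases and a pair of SP matches from positions 96 and 114, counted from 1 at the 5′ end, and the 3110039I08Rik peak held 4 in 220 bases. Malat1 had overlapping SP matches from positions 46 and 51. Gm32834 had NRF1, RFX and E-box matches from positions 58, 69 and 90. The Snhg5 peak covers 4 annotated start sites, at positions 72, 111, 113 and 129, and its TATA match began at position 81, after the first of them and 30, 32 and 48 bases before the others. The Snhg15 peak had a CRE match from position 133. Peg13 and Meg3 had a CTCF core, from positions 63 and 120, and Meg3 also overlapping NRF1 matches from positions 179 and 180. Gm15408 and Ftx had a match to none of the 11 motifs searched. The printed peaks of Malat1, 1810026B05Rik, Peg13 and Meg3 hold no qualifying start site. That of 1810026B05Rik lies 226 bp upstream of its closest one.

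A promoter peak was found in both replicates at 1231 of the 7250 lncRNA genes (17.0%, exact 95% binomial interval 16.1% to 17.9%, which like all intervals here covers counting error only). Among protein-coding genes, counted over all their start sites, it was 14116 of 21938 (64.3%, 63.7% to 65.0%), and among both kinds together 15347 of 29188 (52.6%). A further 320 lncRNA genes had a peak in replicate 1 only, 140 in replicate 2 only and 5559 in neither. Replicate 1 alone gave 21.4% and replicate 2 alone 18.9%. The intervals of the lncRNA and coding shares were far apart in either replicate.

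Values are the authors' signal per peak, whose scaling is not given in the sources used here, and the promoter value of a gene is that of its highest promoter peak in each replicate. Among lncRNA genes open in both replicates the median promoter value was 0.940 in replicate 1 and 1.03 in replicate 2, against 2.54 and 3.19 in coding genes open in both. Only 137 of the 1231 (11.1%) lay above the coding median in replicate 1, and 118 (9.59%) in replicate 2. There were 93459 start sites for 21938 coding genes and 10370 for 7250 lncRNA genes. A coding gene thus has more windows from which its highest peak is taken. Over single peaks, members had a median of 0.636 in replicate 1, with quartiles of 0.417 and 1.14, and of 0.799 in replicate 2, with quartiles of 0.522 and 1.41. Coding promoter peaks, those within 1 kb of a coding TSS, had medians of 1.05 and 1.39, and other remote peaks, those more than 5 kb from a coding TSS that are no members, had 0.502 and 0.595. The median member thus stood at 0.608 and 0.576 of the coding promoter median in replicates 1 and 2, and at 1.27 and 1.34 times the remote median. Both replicates gave the same order of the 3 classes.

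Over all peaks, members recurred between replicates less often than coding promoter peaks and more often than remote ones. Of the members of replicate 1, 1659 (69.9%, interval 68.1% to 71.8%) overlapped a replicate 2 peak by at least 1 bp, against 81.4% of coding promoter peaks and 58.7% of remote peaks. Of the members of replicate 2, 81.7% (80.0% to 83.4%) overlapped one of replicate 1, against 85.2% and 76.1%. Members seen in both lists were the higher ones, with a median of 0.849 against 0.396 for members of replicate 1 alone, and of 0.938 against 0.481 in replicate 2. At 1142 of the 1231 genes the highest peaks of the replicates overlapped, with a median replicate 2 to replicate 1 ratio of 1.12 (5th to 95th percentile 0.759 to 1.53), and the value was higher in replicate 2 at 781 genes (68.4%). Among 13485 coding genes the median ratio was 1.25, and 92.6% were higher in replicate 2. So the replicates of most genes differed in the same direction, in both classes.

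Genes with a peak in 1 replicate only had low values, with medians of 0.396 in replicate 1 and 0.489 in replicate 2. By definition these genes have no peak of the other list within 1 kb, so only a peak that crosses the window edge can overlap one. A highest peak with such an overlap was found at 14 of the 320 and 8 of the 140. The 6 highest of these one-sided genes, 3 from each replicate, were all of that kind: their peaks came within 902 to 989 bp of the TSS, and the nearest overlapping peak of the other replicate lay 1002 to 1188 bp away, just outside the window. B930059L03Rik, for example, had 5.91 in replicate 1 at a distance of 989 bp, and the overlapping replicate 2 peak, at 6.86, lay 1129 bp away. Members between 900 and 1000 bp from a TSS had medians of 0.615 (103 peaks) and 0.734 (95 peaks) in replicates 1 and 2. Peaks just outside, between 1000 and 1100 bp, had 0.612 (98 peaks) and 0.701 (81 peaks). At the other edge of the rule, 55 of 232 lncRNA start sites (23.7%) that lie between 5 and 6 kb from a coding TSS were open in both replicates, and 84 of 282 (29.8%) of the left-out sites between 4 and 5 kb.

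Member peaks gathered around the annotated start but less tightly than coding promoter peaks did. A member covered a qualifying TSS in 29.9% of cases in replicate 1 and 30.7% in replicate 2, against 47.9% and 50.4% of coding promoter peaks. It lay wholly upstream in 34.7% and 33.7% (coding 20.9% and 19.7%) and wholly downstream in 35.5% and 35.5% (coding 31.2% and 30.0%). Members that covered the TSS had medians of 0.841 and 1.05, and the others 0.580 and 0.717. Outside the promoter role most members were intergenic, with 83.7% and 84.3% outside any coding gene, 13.1% and 12.0% in a coding intron and 3.20% and 3.69% over a coding exon. A member lay within 1 kb of an annotated microRNA start in 38 and 31 cases, and served more than 1 lncRNA gene in 108 and 104. In RefSeq, which annotates some of these genes otherwise, 110 (4.64%) and 93 (4.63%) members lay within 1 kb of an mRNA start of RefSeq.

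**Figure D1:**
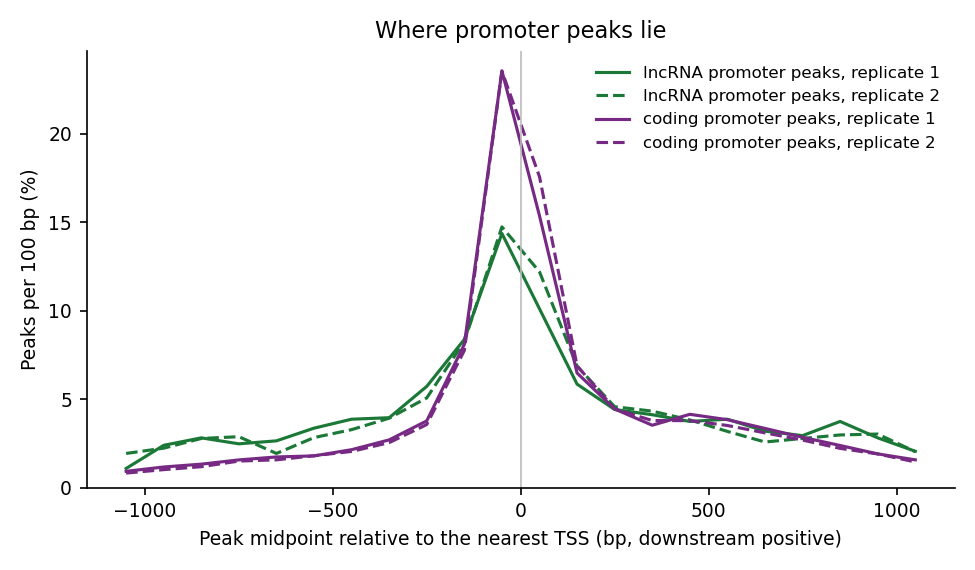
Midpoints of promoter peaks relative to the nearest TSS in 100 bp bins (horizontal axis, bp, downstream positive), as a percentage of the peaks of each class (vertical axis), for lncRNA promoter peaks (green) and coding promoter peaks (purple) in replicate 1 (solid) and replicate 2 (dashed). Both classes are highest in the 100 bp upstream of the TSS, at 14.4% and 14.7% of the lncRNA promoter peaks and 23.6% and 23.5% of the coding ones.

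CpG-rich sites were rare among the qualifying start sites of lncRNA genes. A start site was called CpG-rich where the 500 bp around it had at least 50% GC and an observed to expected CpG ratio of at least 0.6. This held for 530 of 10370 lncRNA start sites (5.11%) and for 38080 of 93459 coding start sites (40.7%). The 5-kb rule had left out lncRNA starts near coding ones, and coding start sites were taken without such a rule. Of the CpG-rich lncRNA sites 410 (77.4%, 73.6% to 80.9%) had a peak within 1 kb in both replicates, and of the CpG-poor ones 1558 of 9840 (15.8%, 15.1% to 16.6%). Coding sites had 95.8% and 24.5% in the same classes. Within each CpG class the lncRNA share was lower and the intervals did not overlap. Start sites of 1 gene can share a peak and are not independent.

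Start sites in repeats were mostly closed. The first base lay in soft-masked repeat sequence at 2578 lncRNA start sites (24.9%) and at 9.86% of coding ones. Of the masked lncRNA sites 172 (6.67%, 5.74% to 7.70%) were open in both replicates, against 1796 of 7792 others (23.0%, 22.1% to 24.0%). The difference held within CpG-poor sites (5.65% against 19.3%) and within CpG-rich sites (30 of 66, 45.5%, against 380 of 464, 81.9%). Coding sites differed by masking too, with 36.8% of masked and 55.4% of other sites open. Among CpG-poor coding sites these shares were 18.98% and 25.4%, and among CpG-rich ones 95.3% and 95.8%. How reads that fit several places in the genome were treated is not given in the sources used here, and the part of mapping in these shares was not tested. Only 769 lncRNA start sites (7.42%) lay inside a peak in both replicates, against 32.0% of coding ones.

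**Figure D2:**
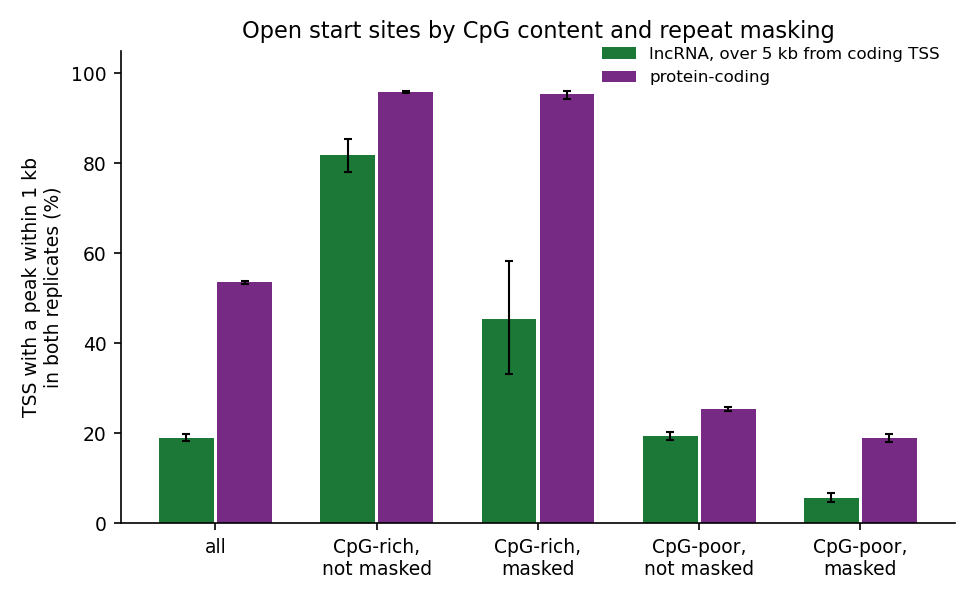
Share of start sites with a peak within 1 kb in both replicates (vertical axis, %) for lncRNA (green) and protein-coding (purple) start sites, over all sites and split by CpG content and by repeat masking of the first base; bars start at 0 and error bars are exact 95% binomial intervals. The lncRNA bars run from 5.65% in CpG-poor masked sites to 81.9% in CpG-rich sites that are not masked, and stand below the coding bars in every class.

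Among the peaks themselves, judged by the 500 bp around their midpoints, 345 members (14.5%) of replicate 1 and 326 (16.2%) of replicate 2 were CpG-rich, against 55.8% and 59.1% of coding promoter peaks and 1.83% and 2.49% of remote peaks. CpG-rich members had medians of 1.44 and 1.84, and CpG-poor members 0.594 and 0.726. For coding promoter peaks these medians were 1.82 and 2.34 in the CpG-rich class and 0.636 and 0.791 in the CpG-poor class. For remote peaks they were 0.962 and 1.09, and 0.495 and 0.595. Member medians lay between coding promoter peaks and remote peaks in either class. Of CpG-rich members 93.0% in replicate 1 and 92.3% in replicate 2 overlapped a peak of the other list, as did 93.0% and 92.3% of CpG-rich coding promoter peaks. Of CpG-poor members 66.0% and 79.7% did, against 66.8% and 74.99% of CpG-poor coding promoter peaks. In the CpG-poor class members of replicate 2 thus recurred more often than coding promoter peaks, against the order over all peaks.

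The kind of lncRNA gene went with the share that was open. Processed transcripts, the GENCODE class of transcripts without an open reading frame that belong to no narrower type, had a peak in both replicates at 139 of 429 genes (32.4%, 28.0% to 37.1%), with median values of 1.31 and 1.41 among those open in both. LincRNA genes, by name those between coding genes, had 859 of 5174 (16.6%) with medians of 0.940 and 1.01. Some of them, such as Gm32834 with S1pr3, overlap a coding gene. Antisense genes had 213 of 1416 (15.0%) with 0.813 and 0.905. Sense intronic genes, inside introns of coding genes, had 20 of 223 (8.97%), and the 8 bidirectional promoter genes left by the 5-kb rule had none in either replicate. The sense intronic gene with the highest mean was D430018E03Rik in Fbxl18, with 2.52 and 3.38 and a mean of 2.95, close to that of Peg13, 2.92. With a window of 500 bp the mean of D430018E03Rik was 0.855. Genes with 1 qualifying start site had 13.8%, those with 2 had 19.96%, those with 3 or 4 had 35.4% and those with 5 or more had 56.5%. A gene with more start sites also has more windows in which a peak can fall. The part of start site number in the shares by gene type was not tested. Genes of 1 exon (58 of 367, 15.8%), of 2 exons (15.4%) and of 3 or more exons (18.1%) differed less.

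By distance from coding genes the share was 19.3% where the nearest coding TSS lay 5 to 10 kb away, 18.7% at 10 to 50 kb, 17.7% at 50 to 100 kb and 14.0% (12.6% to 15.4%) beyond 100 kb. Where the promoter of the nearest coding gene was open in both replicates, 978 of 5295 lncRNA genes (18.5%, 17.4% to 19.5%) were open too, and where it was not, 253 of 1955 (12.9%, 11.5% to 14.5%). The shares were 16.4% against 8.65% for genes beyond 100 kb. They were 19.7% against 15.4% at 10 to 50 kb and 18.9% against 14.5% at 50 to 100 kb. Genes 5 to 10 kb away had 19.5% against 18.7%, and in each of these nearer ranges the intervals overlapped. Start sites inside a coding gene were open in 14.0% of cases and those outside in 20.1%. On chromosome X 27 of 137 lncRNA genes (19.7%, 13.4% to 27.4%) were open in both replicates against 18.3% on autosomes, inside that interval, and on chromosome Y 1 of 551 (0.181%, up to 1.01%). The chromosome Y genes were counted in the shares by distance and by nearest coding promoter, and their part in those differences was not tested.

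**Figure D3:**
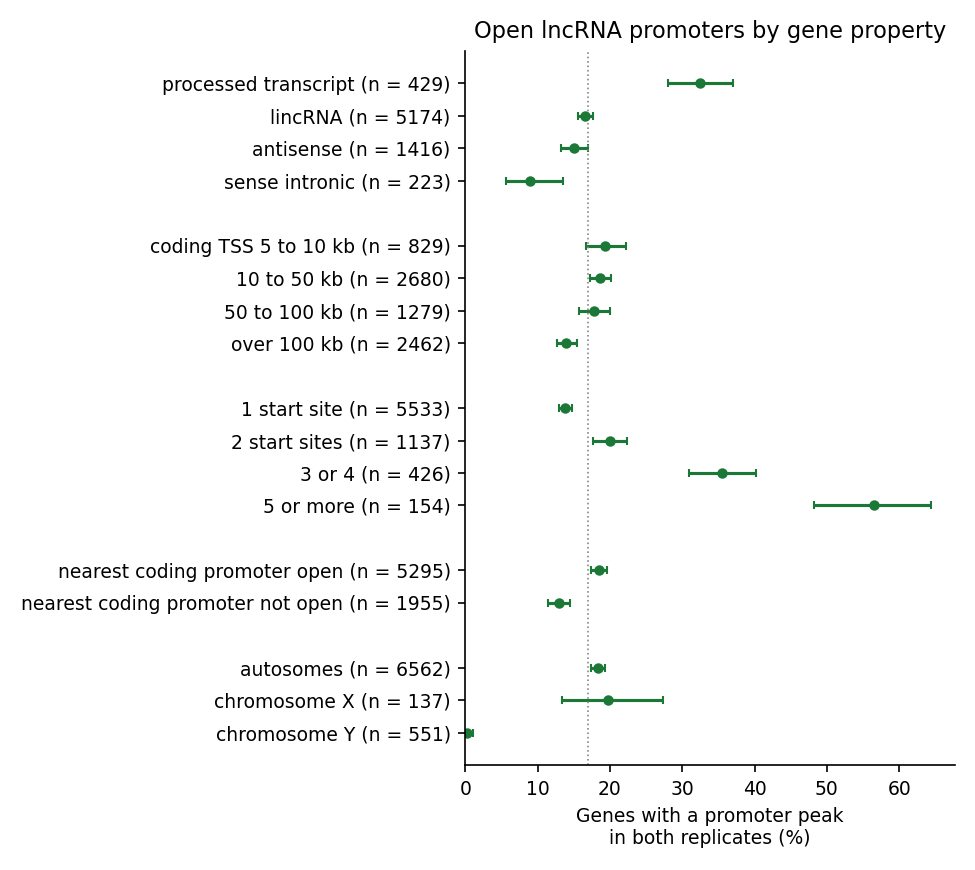
Share of lncRNA genes open at the promoter in both replicates (horizontal axis, %) by gene type, distance of the nearest coding TSS, number of qualifying start sites, state of the nearest coding promoter and chromosome; points are shares, bars exact 95% binomial intervals, n the number of genes, and the dotted line the 17.0% of all 7250 genes. Genes with 5 or more start sites reach 56.5% and chromosome Y lies at 0.181%.

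The highest lncRNA promoter value stood over ribosomal sequence. Gm42418 had 55.9 in replicate 1 and 83.8 in replicate 2, the highest peak of either library, at chr17:39846781-39846920. The peak lies 38 bp upstream of the gene's start and inside a stretch that GENCODE annotates as ribosomal RNA (CT010467.1, chr17:39846353-39848827) and RefSeq as the 18S RNA related pseudogene Rn18s-rs5 (chr17:39846354-39848202). Ribosomal RNA genes are present in many near-identical copies, and whether the cuts came from this copy was not tested. The next gene, Gm15408, reached 11.2.

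Ranked by the mean of the replicates, the 19 next genes began with Gm15408 at 9.13 and 11.2. The lowest of them was B230208H11Rik in replicate 1, at 5.54, and Gm6410 in replicate 2, at 6.75. Gm15408, a lincRNA gene 11815 bp from the nearest coding TSS, held rank 37 among the 115072 peaks of replicate 1. Malat1, the abundant nuclear speckle RNA, had 7.29 and 9.42 in a peak 869 bp upstream of its closest qualifying start. Gm11205 had 6.24 and 9.11, Gm31812 had 6.63 and 7.50, and Gm32834 had 5.69 and 8.14. Replicate 2 was higher in all 20 genes. 1700028E10Rik and D730045B01Rik lie on opposite strands and share 1 peak, at chr5:151368481-151368940, with 7.62 and 8.67. Tmem250-ps, at 6.98 and 10.2, is coding in RefSeq, with an mRNA start 15 bp from the qualifying one. 1700113A16Rik, antisense in the gene of the neuronal transcription factor Mef2d, had 7.48 and 8.97. The highest peak covered a start site in some of the other genes (6720427I07Rik, 6.65 and 8.46; Gm33195, 6.00 and 7.17; Gm26901, 5.90 and 7.22). In others it lay upstream, by 7 bp at Gm12915 (5.97 and 7.32), 93 bp at 1700096K18Rik (6.41 and 7.35), 408 bp at Gm10433 (5.83 and 7.85), 713 bp at Gm36445 (6.00 and 7.20) and 842 bp at Gm6410 (6.39 and 6.75).

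Genes of other small RNAs lay under some of these peaks. After the sequences had been read, the peaks were compared with the 403 transfer RNA (tRNA) genes of RefSeq. A tRNA gene lay under 10 member peaks of replicate 1 (0.422%) and 13 of replicate 2 (0.648%), against 0.123% and 0.124% of coding promoter peaks and 0.202% and 0.235% of all peaks. Among remote peaks the share was 0.213% and 0.263%. The members over a tRNA gene had medians of 4.18 and 6.20, against 0.636 and 0.795 for the other members. Peaks over a tRNA gene were higher in the other classes too. Coding promoter peaks had 3.89 and 5.10 over one, against 1.05 and 1.39, and remote peaks 1.65 and 2.36, against 0.502 and 0.595. Over genes, the highest peak of replicate 1 held a tRNA gene at 10 of the 1231 genes and at 3 of the 20 highest. These were Gm11205, whose printed sequence holds a threonine tRNA gene at positions 190 to 261, B230208H11Rik (5.54 and 8.18, a leucine tRNA) and AC154766.4 (5.62 and 7.49, an arginine tRNA). Both latter peaks miss the lncRNA start: that of B230208H11Rik lies 290 bp downstream of its start and that of AC154766.4 319 bp upstream. Whether the openness there belongs to the tRNA or to the lncRNA was not tested.

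The hosts of small nucleolar RNAs, which guide chemical modification of ribosomal and spliceosomal RNA, were open without exception among those that could be counted. Of 19 listed genes 8 qualified and all 8 had a peak in both replicates, against 17.0% of all lncRNA genes. Their medians were 2.99 and 3.82. In 7 others every start site lay near a coding TSS, 3 were not in the annotation and 1, Snhg11, is typed as coding. Snhg15 had 5.10 and 6.33, Snhg8 5.23 and 6.14, and Snhg12 3.08 and 4.09. Snhg5 had 4.21 and 4.22. Snhg6 had 2.38 and 3.54, and Snhg17, with 2.91 and 2.68, was the 1 of the 8 that was lower in replicate 2. The highest peak covered the TSS in the 6 genes named here.

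Broadly expressed nuclear or cytoplasmic lncRNAs were open at 7 of 8 qualifying genes (87.5%, against 17.0% of all lncRNA genes), with medians of 3.50 and 4.16. After Malat1 came 1810026B05Rik, which neighbours the chromatin remodeller gene Chd2, with 5.30 and 6.96. Neat1, the scaffold of paraspeckles, had 3.57 and 4.39, and Dleu2, host of a microRNA cluster, 3.50 and 4.16. Lncpint had 2.25 and 2.88, and Pvt1, the neighbour of the growth gene Myc, 1.60 and 2.14. Replicate 2 was higher in each of these. Crnde, best known from colorectal tumours and development, had no peak within 1 kb of its qualifying starts in either replicate. The Neat1 and Dleu2 peaks also serve a gene running the other way, Frmd8os and Gm27017. In all, 102 pairs of qualifying lncRNA genes started head to head within 1 kb, and in 30 of them (29.4%) both genes were open. Of the 203 genes in such pairs 68 (33.5%) were open, against 17.0% of all. The windows of such partners overlap, so a single peak can open both genes and they are not independent. The part of shared windows in these shares was not tested. The highest pair, named after its values were seen, was 4930555B11Rik and BB557941, with starts 77 bp apart and values of 4.88 and 6.57.

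Hosts of microRNAs were open at 6 of 7 qualifying genes (85.7%, against 17.0% of all lncRNA genes), with medians of 2.03 and 2.73. Mir670hg had 2.46 and 3.27, Mir99ahg 2.30 and 3.04, and Mir17hg, host of a growth-promoting microRNA cluster, 2.21 and 2.80. Hosts of the neuronal microRNAs followed. Mir9-3hg, from which the progenitor microRNA miR-9 comes, had 1.85 and 2.67. The hosts of miR-124, a microRNA abundant in neurons, had 1.49 and 1.61 (Mir124a-1hg, in a different peak in each replicate) and 0.820 and 1.30 (Mir124-2hg). Mir155hg, known from activated immune cells, had 0.424 in replicate 2 and no peak in replicate 1. Several of these are wide loci with many starts. At Mir99ahg 9 promoter peaks of replicate 1 overlapped a replicate 2 peak, at Mir124-2hg 6 and at Mir9-3hg 5.

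LncRNAs of neural development were open at 8 of 11 qualifying genes (72.7%, against 17.0% of all lncRNA genes). Their medians were 1.26 and 1.79, below those of the small RNA hosts. 9530059O14Rik had 2.68 and 3.22. C130071C03Rik had 2.36 and 3.13. Of its 13 promoter peaks in replicate 1, 11 overlapped a replicate 2 peak, the most of any lncRNA gene. Replicate 2 had 10 promoter peaks at this gene. Its nearest coding TSS, 68493 bp away, is that of Mef2c, a transcription factor of excitatory neurons. 3110039M20Rik had 1.98 and 2.29, Miat 1.39 and 1.94, Pantr2, beside the cortical factor gene Pou3f3, 1.14 and 1.63, and Sox2ot, which overlaps the stem cell factor gene Sox2, 1.05 and 1.49. The mean of the replicates at Sox2ot, 1.27, was 0.715 with the shorter peak lists, 0.725 with a window of 500 bp and 0.390 with starts over 20 kb from a coding TSS. Pantr2 was not open in both replicates with the shorter lists. Pantr1 and Dlx6os1, the latter antisense to an interneuron homeobox gene, had no peak in either replicate. Dlx1as had 0.644 in replicate 2 only. Another locus rich in open starts, outside the lists, was 3110039I08Rik, with 10 replicate 1 promoter peaks shared with replicate 2 and a highest value of 3.74 and 3.87. Gm3764 had 8 and a highest value of 2.30 and 3.18, in a different peak in each replicate, and Dleu2 had 6.

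Imprinted lncRNAs were open at 6 of 8 qualifying genes (75%, against 17.0% of all lncRNA genes), with medians of 1.86 and 1.99. In the C57BL/6 by CAST/EiJ cross the parental alleles differ in sequence, but the deposited peaks do not separate them. Peg13, inside an intron of Trappc9, had 2.75 and 3.10, and Kcnq1ot1, the silencer of the Kcnq1 domain, 3.00 and 2.01. Mirg had 2.11 and 2.01 and Meg3, at the start of the same maternally expressed cluster, 1.61 and 1.97. Airn, which silences Igf2r, had 0.955 and 0.636, and was not open in both replicates with the shorter peak lists. Snhg14 was lowest with 0.262 in replicate 1, in a peak 834 bp from a start, and 0.416 in replicate 2, in another peak that does not overlap it. Kcnq1ot1, Mirg and Airn were lower in replicate 2, against the trend of most genes. H19 and Rian had no peak in either replicate. With a window of 500 bp, which leaves out the highest Meg3 peak, its mean was 1.00 in place of 1.79. The peaks of Peg13 and Meg3 lay 164 and 653 bp downstream of a start and hold the CTCF cores shown in capitals in their sequences.

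On the X chromosome, Ftx, Firre and Jpx were open in both replicates of these male mice. Ftx, an activator of Xist in the inactivation centre, had 2.07 and 2.25, and Jpx, another activator, 1.22 and 1.53. Firre, a lncRNA of X chromosome structure, had 1.53 and 1.42. Xist, which coats the inactive X of females, had only a peak of 0.382 in replicate 1, 934 bp from its closest qualifying start, and none in replicate 2. Its antisense partner Tsix had 0.457 in replicate 2 only. Both single values lie below the median member of their replicate.

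LncRNAs known from other tissues and from trunk patterning were mostly closed. Of 12 qualifying genes 2 had a peak in both replicates (16.7%), which is near the 17.0% of all lncRNA genes. They were Bvht, described in heart, with 0.997 and 1.13, and Fendrr, described in lateral mesoderm, with 0.615 and 0.530 in a peak 902 bp from a start. With the shorter peak lists neither Bvht nor Fendrr was open in both replicates. The mean at Bvht, 1.07, was 3.76 with a window of 2500 bp. Hotair and Halr1 of the Hox clusters and Hand2os1 had none in either replicate. Lncenc1 had 0.474 in replicate 1 only and Dnm3os 0.342 in replicate 2 only. Over all 7 lists 40 of 59 qualifying genes (67.8%) were open in both replicates. The lists were chosen with earlier results of these data known and hold well-studied genes. Several of these have many start sites (18 at Sox2ot, 16 at Mir99ahg, 11 at Dleu2 and at Meg3). Of all lncRNA genes with 5 or more start sites 56.5% were open. The part of start site number in the list shares was not tested. The share over the lists is thus a description of them and not of lncRNA genes in general.

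**Figure D4:**
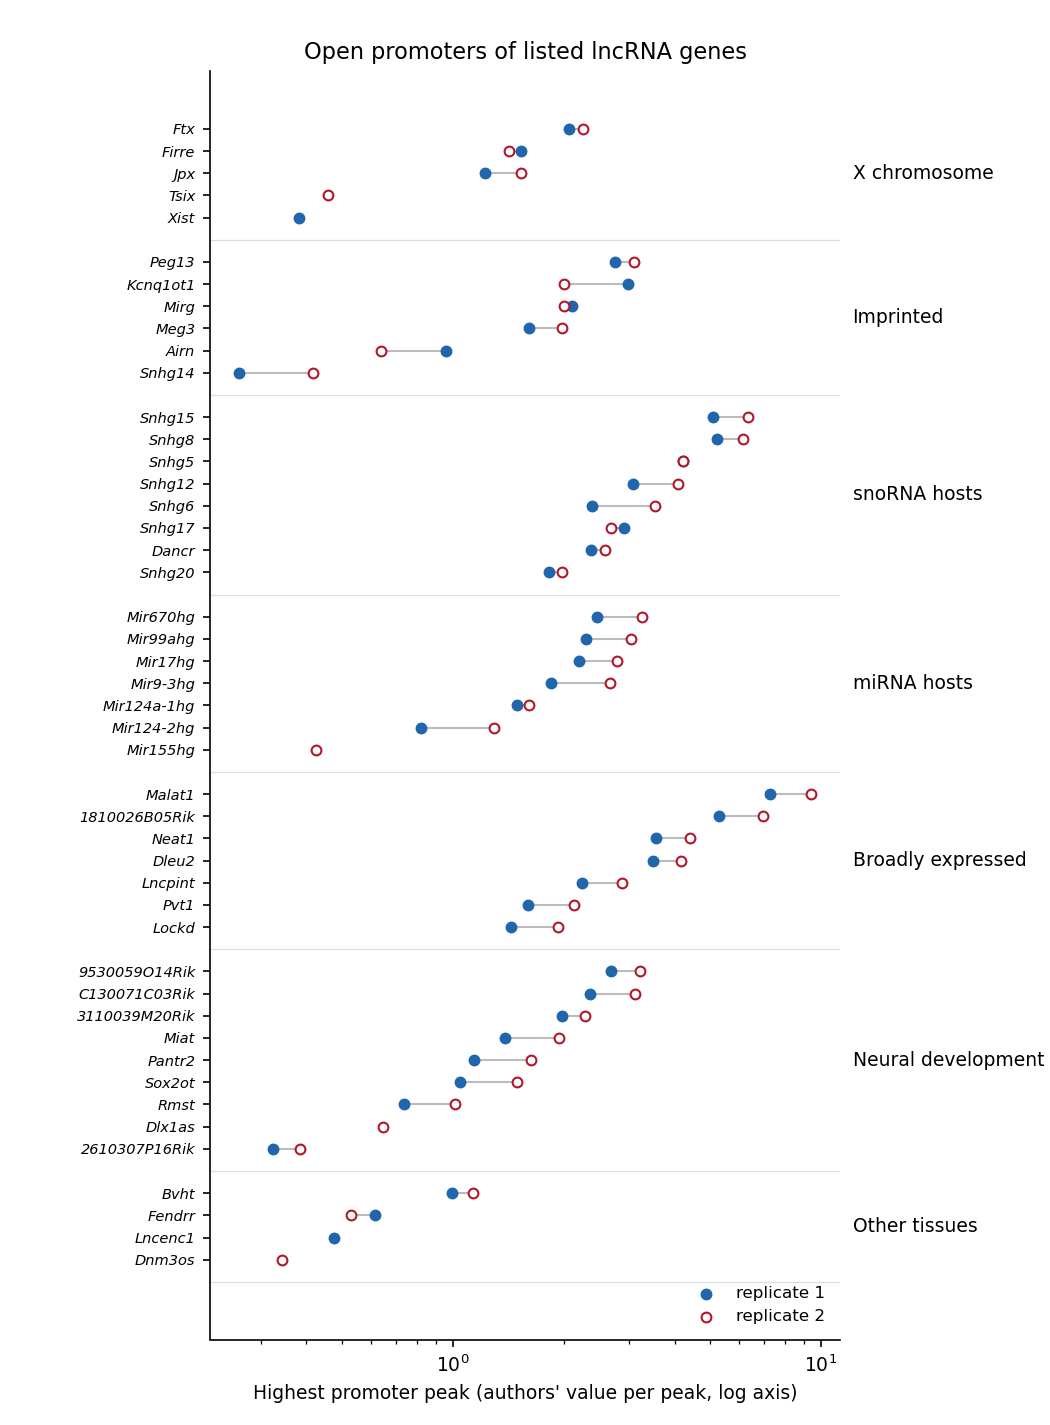
Promoter value of each listed lncRNA gene with a peak (horizontal axis, the value the authors gave its highest peak, log scale), replicate 1 as filled blue and replicate 2 as open red points joined by a line, grouped by list. Small nucleolar RNA hosts and broadly expressed genes lie farthest to the right, up to 7.29 and 9.42 at Malat1, and Xist, Tsix, Mir155hg, Dlx1as, Lncenc1 and Dnm3os have a point in 1 replicate only.

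Footprints, short protected stretches inside open sites that the authors called at a false discovery rate of 0.01, were found in 78.0% of members in replicate 1 (76.3% to 79.6%) and 77.3% in replicate 2 (75.4% to 79.1%). Coding promoter peaks had 79.3% and 80.5%, and remote peaks 73.1% and 71.3%. Per kb of peak, members held 8.95 and 9.09 footprints, coding promoter peaks 10.5 and 10.9, and remote peaks 8.21 and 8.17. Median widths were 230 and 220 bp for members, 273 and 280 bp for coding promoter peaks and 199 and 189 bp for remote peaks, and a wider peak has more room for a footprint. Among CpG-poor peaks the members had a footprint in 76.3% and 75.3%, coding promoter peaks in 69.9% and 69.8%, and remote peaks in 73.0% and 70.9%. In the authors' cut rate, all members held a stretch under a false discovery rate of 0.05, and 1410 (59.4%) and 1200 (59.8%) one under 0.001. Peaks and stretches come from the same libraries, so these shares are no separate support for the members. The other classes were not counted in this way. Of lncRNA start sites with no peak within 1 kb, 152 of 7952 (1.91%) and 139 of 8202 (1.69%) had a listed stretch within that window.

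Motif matches in members lay between the other classes for most motifs. In the central 150 bp of a peak, a length equal for all classes, the SP motif was found in 3.20% and 3.64% of members, 11.4% and 12.2% of coding promoter peaks and 0.967% and 1.18% of remote peaks (all peaks 3.84% and 4.61%). ETS (CCGGAAGT) was found in 0.801% and 0.797% of members, 2.43% and 2.39% of coding promoter peaks and 0.184% and 0.190% of remote peaks (all 0.800% and 0.863%). NRF1 and CRE followed the same order, with 0.506% and 0.698%, and 0.548% and 0.648%, of members against 0.451% and 0.535%, and 0.502% and 0.582%, of all peaks. The CTCF core went the other way, in 4.55% and 4.88% of members, 2.42% and 2.33% of coding promoter peaks and 6.21% and 6.74% of remote peaks (all 5.41% and 5.57%). So did the E-box, in 27.6% and 27.5% of members, 17.8% and 17.2% of coding promoter peaks and 35.0% and 34.7% of remote peaks (all 29.7% and 28.6%). RFX was found in 1.10% and 0.997% of members, 0.531% and 0.428% of coding promoter peaks and 0.791% and 0.719% of remote peaks (all 0.713% and 0.620%), on 26 and 20 members. TATA (all 3.85% and 3.08%) was found in 4.22% and 2.84% of members. AP-1 (TGANTCA), MEF2 (CTAAAAATA) and YY1 (AAGATGGCG) were found in 4.64% and 4.53%, 0.295% and 0.399%, and 0.253% and 0.299% of members, against 4.95% and 4.28%, 0.285% and 0.204%, and 0.382% and 0.462% of all peaks. The rarer motifs rest on 6 to 26 members each, and the classes differ in base composition.

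**Figure D5:**
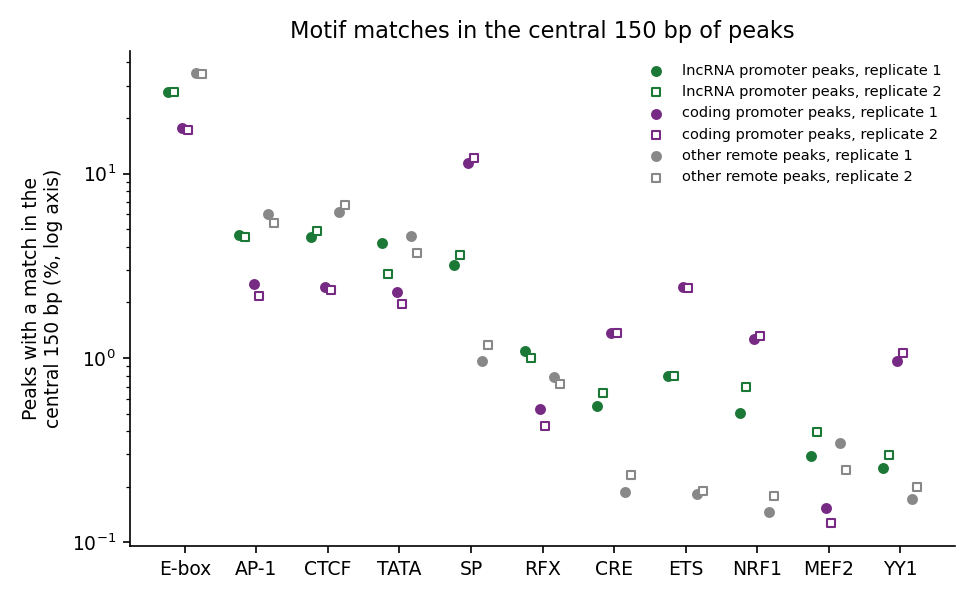
Share of peaks with a motif match in their central 150 bp (vertical axis, %, log scale) for each of 11 motifs, in lncRNA promoter peaks (green), coding promoter peaks (purple) and other remote peaks (grey), with replicate 1 as filled circles and replicate 2 as open squares. The lncRNA promoter peaks lie between the other classes for E-box, CTCF and SP, at 27.6%, 4.55% and 3.20% in replicate 1.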

How the data were processed

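DNase-seq peaks, footprints and cut rates on mm10 were used as deposited. The authors deposited 2 peak lists per replicate, each with a signal value per peak. The longer list of each replicate was used, and the step from reads to values (scaling, aligner, caller) is not given in the sources used here. In place of a p-value, the deposited footprint and cut rate files hold a false discovery rate, 0.01 for every footprint and under 0.05 for every cut rate stretch, per the file descriptions and values. Library depth is unknown, since no read totals were given.

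Genes came from GENCODE M21 and sequence from GRCm38.p6 (chromosomes 1 to 19, X and Y). Distances run from the peak edge to the TSS. Peaks were shared if they overlapped by 1 bp. Shared promoter peaks of a gene were counted among its replicate 1 peaks, and the overlapping replicate 2 peak could lie outside the window. The 11 motifs were searched on both strands. The classes were computed with Python 3.11.15, numpy 2.4.6 and pandas 2.3.3, cut rates joined with bedtools 2.31.1, intervals computed with scipy 1.17.1 and figures with matplotlib 3.10.9, and the counting functions were tested on simulated peaks. No test between groups was possible. Genes were named as the 20 highest, the highest of each type, up to 6 open and 3 closed genes per list with those seen in 1 replicate, the 5 with most shared peaks, the 3 highest beside forebrain factors, and the 3 highest seen in each replicate alone. The members and lists were chosen with earlier results of these data known, and the tRNA and RefSeq mRNA comparisons after seeing the data. The alternatives tried are in the closing section.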

Additional observations from a re-analysis of the deposited data

How the results depend on the processing

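The share of lncRNA genes open in both replicates was 10.7% with the shorter peak lists, 14.0% with a window of 500 bp, 23.8% with 2500 bp and 15.9% with only the 5′-most start of each gene. For coding genes it was 59.3%, 62.8% and 67.2% under the first 3. With 1 replicate left out, the lncRNA share ranged from 18.9% to 21.4% and the coding share from 65.8% to 66.4%.

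The median member to coding promoter ratio was 0.668 with the shorter lists, 0.519 with 500 bp, 0.650 with 2500 bp and 0.565 with coding TSS over 20 kb away, and the ratio to remote peaks was 1.24 with 2500 bp. The share of replicate 1 members overlapping replicate 2 was 72.5% with 500 bp, 67.7% with 2500 bp and 49.1% if 50% of both peaks had to overlap, and 81.7% seen from replicate 2.

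In the same order (shorter lists, 500 bp, 2500 bp, 20 kb), footprint shares were 86.6%, 79.5%, 76.5% and 76.0%, and 76.6% for footprints wholly inside. CpG-rich shares were 22.8%, 18.4%, 11.7% and 13.5%. The CTCF share over whole peaks, 5.37% as the mean of the replicates, was 8.09% with the shorter lists, 6.00% with 2500 bp, 4.64% with 20 kb and 4.72% in the central 150 bp. The cause of these moves was not tested. The other 52 recomputed values stayed inside the binomial interval of a share or within the standard deviation of the 2 replicates of a mean. In all, 0 ratios changed side of 1. A single replicate always lies within that standard deviation of the mean of 2, so leaving 1 out could not move a mean. The 52 values include leaving out genes within 5 kb of a RefSeq mRNA start, chosen after seeing the data. Of 59 named genes open in both replicates, 55 had a value in the shorter lists and 38 with the 20 kb rule. The genes without a value in the shorter lists were Pantr2, Airn, Bvht and Fendrr. The mean moved by over 1.5 times at D430018E03Rik, Meg3, Sox2ot and Bvht, as given in the report, and at Gm31294, from 2.15 to 0.797 with 500 bp. No paired analysis was possible because the 2 replicates form 1 group. Depth was not known, so closed and not detectable cannot be told apart.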

Other observations

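LncRNA genes whose nearest coding gene is a forebrain transcription factor were open in both replicates at 23 of 90 (25.6%, interval 16.9% to 35.8%), against 16.9% (16.01% to 17.8%) of the others. Several of them share 1 factor gene. C130071C03Rik and Gm26803 (2.06 and 2.65) lie nearest to Mef2c, and Gm31294 (2.19 and 2.10) to Tcf4.

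LncRNA genes with a RefSeq mRNA start within 5 kb of a qualifying start were open at 78 of 248 (31.5%, 25.7% to 37.6%), against 16.5% of the others. By chromosome, the share of open lncRNA genes ran from 12.5% on chromosome 8 (51 of 407) to 25.5% on chromosome 17 (71 of 278), leaving out chromosome Y.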
